A study of Mus musculus with 9 samples.

Results

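The genes described are 10 neuronal cytoskeleton and RNA-binding genes, given as a list of symbols: the RNA-binding genes Elavl2, Elavl3 and Elavl4, the microtubule genes Dcx, Tubb3, Map2 and Stmn2, the neurofilament genes Nefl and Nefm, and the growth cone gene Gap43. Of these, 8 were measured among the 19435 genes of the deposited table, and the expression of Elavl3 and Nefm is not analysed here. They were followed in 9 poly-A RNA-seq libraries of untreated mouse oviducts and primary tumors. Dicer1+/D1693N was the genotype of oviducts 1 to 3, Dicer1+/+ that of oviducts 4 and 5, and Dicer1ko/D1693N that of the 4 primary tumors. Dicer1 encodes the RNase III enzyme that cuts miRNA precursors, and D1693N is a substitution in its RNase IIIb domain. The tumors and oviducts 1 to 3 thus shared the D1693N allele, and only oviducts 4 and 5 lacked it. The driver of the knockout allele, the strain, the age of the animals and any batch are not given in the sources used here. Nothing in the labels says that libraries of a group came from separate animals, so p-values measure only the spread between these samples.

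Neurons build their axons and dendrites on microtubules of tubulin isotypes that include the class III beta-tubulin Tubb3. The microtubules are decorated and kept in turnover by proteins such as Dcx, Map2 and Stmn2, and axons gain calibre from neurofilaments. The Elavl2, Elavl3 and Elavl4 proteins, known as neuronal Hu proteins, bind AU-rich stretches of messenger RNA and affect its stability and splicing. The wall of the oviduct receives autonomic nerve fibres, and several of these genes are also used outside neurons.

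Because the genotypes concern miRNA processing, the 3' UTRs of the 10 genes were searched for sites of 3 miRNAs that are abundant in neural tissue or development, chosen after the expression values had been seen. Their mature sequences (RefSeq) follow, with the seed, bases 2 to 8, in capitals.
mmu-let-7a-5p: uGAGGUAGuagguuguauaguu
mmu-miR-125b-5p: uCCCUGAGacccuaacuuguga
mmu-miR-9-5p: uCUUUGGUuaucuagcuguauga
The 3 seeds differ from each other, and a site is the DNA complement of the seed. The let-7a site CTACCTC was in 9.18% of 20659 annotated 3' UTRs and in 1 of the 10 genes, Dcx. The miR-125b site CTCAGGG was in 13.3% of the UTRs and in 2 of the genes, Dcx and Nefm. The miR-9 site ACCAAAG was in 12.4% of the UTRs and in 0 of the 10 genes. The sites in Dcx are shown because Dcx had the widest range of values among the genes. Both lie in its annotated 3' UTR of 7709 bases (GENCODE M21, GRCm38), and the capitals mark the site. This was the longest UTR of the 10 genes, with the others from 391 to 3576 bases. A longer UTR has more places for a match, and the shares above take no account of length.
Dcx let-7a site, chrX:143860758-143860779, minus strand: tatgttgcttgttcCTACCTCc
Dcx miR-125b site, chrX:143856326-143856347, minus strand: atgtgcgacagataCTCAGGGg
A match of letters is a description of the sequence, and no miRNA was measured in these libraries.

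Tubb3 was the member with the smallest adjusted p between tumors and oviducts, and the RefSeq window around its start on GRCm38.p6 is shown for that reason, at chr8:123411303-123411602 on the plus strand. The window was searched on both strands for the letters CAGCACC and GGACAGC, the half-site motifs of the RE1 element that REST, a repressor of neuronal genes outside neurons, is known to bind. Capitals mark the matches, both of which are on the minus strand and so read as GGTGCTG and GCTGTCC.
Tubb3 promoter window: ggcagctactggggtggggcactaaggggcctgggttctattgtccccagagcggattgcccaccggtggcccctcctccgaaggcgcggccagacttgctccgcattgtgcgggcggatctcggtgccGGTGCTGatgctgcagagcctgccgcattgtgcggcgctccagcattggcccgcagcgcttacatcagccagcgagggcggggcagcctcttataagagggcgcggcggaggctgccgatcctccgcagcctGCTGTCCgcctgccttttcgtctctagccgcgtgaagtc
The matches begin at positions -121 and 11, where 0 is the RefSeq start at 123411553. They lie far apart, and on the minus strand GGACAGC is read before CAGCACC. Each half-site was searched alone, and no joined RE1 element was sought or is shown. The gene start in GENCODE M21, 123411424, lies within the window and upstream of both matches. CAGCACC was present in 7.14% and GGACAGC in 6.56% of 32851 promoter windows of the same length. Windows were available for 6 of the 10 genes, of which Map2 also held GGACAGC, at position -220. No binding was measured.

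Levels are given as normalized counts, which are reads divided by the size factor of the library. Libraries held 8504993 to 12526078 counted reads, so that 3 reads, the limit that a count of 0 allows, correspond to no more than 3.35 normalized counts in oviduct libraries and 3.41 in tumor libraries. A log2 change is the mean deposited log2 value of the tumors minus that of the oviducts, with the SE of limma's moderated test. Changes of genes with few reads come out too small on this scale. Called means that the adjusted p was under 0.05 and the log2 change was 1 or more in either direction. In bulk tissue, fewer cells of a type and less RNA per cell cannot be told apart. The oviduct and tumor labels were set beside markers of oviduct cells. The summed level of the 8 measured ciliated cell genes was 19892 to 32770 in the oviducts and 33.7 to 657 in the tumors. That of 6 secretory cell genes was 93745 to 171773 against 15498 to 24823. Ovgp1 made up most of the oviduct sums, with means of 96343 in oviducts and 6981 in tumors. In tumor 4 it was at 111 of a sum of 18137. The sum thus mainly follows Ovgp1 and does not show a fall of all 6, of which 2, Ovgp1 and Cdh1, were called lower, against 12.1% of all genes. Dicer1 itself had 904 to 1237 normalized counts in the oviducts and 576 to 1379 in the tumors (log2 change -0.21 ± 0.25, adjusted p = 0.568). Which part of the gene the knockout allele lacks is not given in the sources used here, so this level does not check the labels.

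Between tumors and oviducts, Elavl4 and Tubb3 were called higher and Map2 was called lower, 2 and 1 of the 8 measured genes. Of the 8 genes, 2 passed a filter on low values (Map2 and Stmn2), so the others are known from few reads in most libraries. Across all 19435 genes, 6.53% were called higher, 12.1% lower and 18.7% in either direction. The median log2 change was 0.95 over the 8 genes and -0.05 over all genes tested, but these medians are not on like terms. Every gene of the table had at least 10 reads in total. Elavl4, Gap43 and Nefl reached this only through the tumors, with 0, 4 and 2 oviduct reads, so they could hardly come out lower. The 10 genes were also chosen with earlier results of these data known. Tubb3 was the only one of the 8 whose 4 tumors all lay outside the range of the 5 oviducts, whereas 10.8% of all genes lay wholly higher and 16.8% wholly lower in the tumors. The tumors differed widely from each other for most of the genes, and the library with the highest level was not the same from gene to gene.

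**Figure D1:**
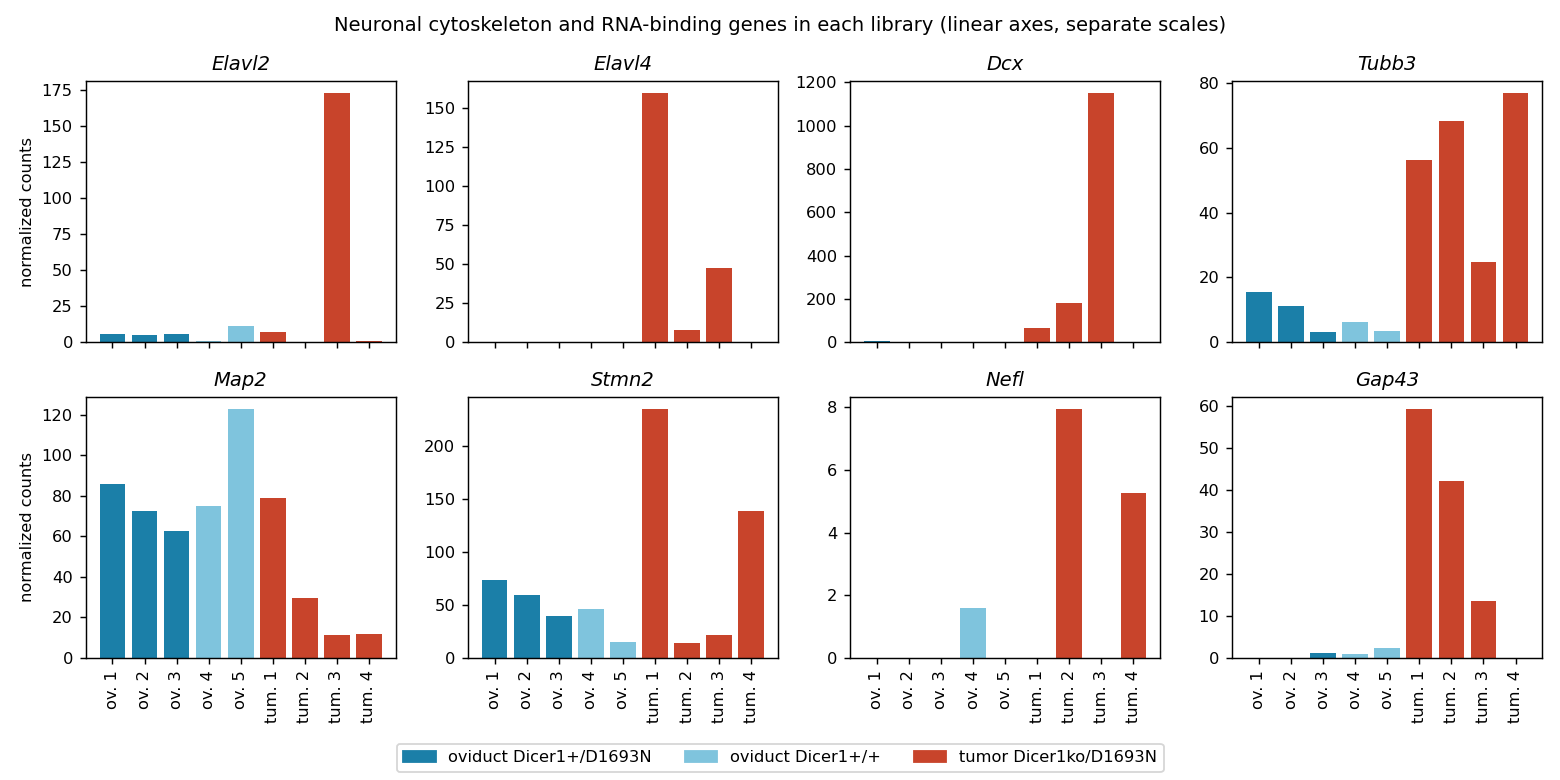
Normalized counts of the 8 measured genes in each of the 9 libraries, 1 bar a library, coloured by group, on linear axes with a separate scale for each gene. The tallest bar is tumor 3 for Dcx and Elavl2 and tumor 1 for Elavl4 and Gap43, and only for Tubb3 do all 4 tumors, from 24.8 to 76.8, sit above all oviducts, which reach 15.6.

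Elavl4 (ENSMUSG00000028546, chromosome 4, 110203722 to 110351909, minus strand), which encodes the Hu protein HuD, had no read in any of the 5 oviducts. The tumors held 159, 7.95, 47.3 and 0 normalized counts (tumors 1 to 4), from 164, 7, 42 and 0 reads. It was thus detected in 3 of 4 tumors, and tumor 4 could not be told from an oviduct at this depth. The tumor mean of 53.6 ± 73.4 (SD, n = 4) was at least 16.01-fold higher than the limit of 3 reads per library in the oviducts, and at least 5.50-fold without tumor 1. The log2 change was 1.98 ± 0.66 (adjusted p = 0.0424). That call was lost when any 1 of the 5 oviducts was left out (adjusted p = 0.0759 to 0.0785), without tumor 1 (0.0734), without tumor 3 (0.0917) and when limma-voom was run on the recovered reads (0.0513).

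Elavl2 (ENSMUSG00000008489, chromosome 4, 91250763 to 91400785, minus strand), which encodes HuB, was present at a few reads in every oviduct, with 5.58, 5.24, 5.97, 0.786 and 11.2 normalized counts in oviducts 1 to 5. The tumors held 6.80, 0, 172 and 1.05. Tumor 3 alone stood above the oviducts, and tumor 2 had no read. The log2 change of 0.46 ± 0.72 was not significant (adjusted p = 0.664). Without tumor 3 the tumor mean went from 45.0 to 2.62 normalized counts, below the oviduct mean of 5.75 ± 3.68 (SD, n = 5), and the log2 change became -0.45. The broadly expressed relative Elavl1 (HuR), for comparison, was at 705 ± 82.5 in oviducts and 901 ± 94.6 in tumors, a log2 change of 0.35 ± 0.13 (adjusted p = 0.0698).

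Dcx (ENSMUSG00000031285, chromosome X, 143855842 to 143933311, minus strand), the doublecortin of migrating young neurons, had 5.58, 1.497, 0, 1.57 and 2.23 normalized counts in oviducts 1 to 5. The tumors held 63.1, 182, 1148 and 0. Tumors 1 to 3 were all above every oviduct, and tumor 4 had no read. The means were 2.18 ± 2.07 (SD, n = 5) and 348 ± 539 (SD, n = 4), and the tumor mean was 81.6 without tumor 3. The log2 change of 2.94 ± 1.04 was the largest of the 8 genes and missed the threshold (adjusted p = 0.0547). It passed without tumor 4 (4.10 ± 0.69, adjusted p = 0.00142) and after quantile normalization (0.0305), and limma-voom gave an adjusted p of 0.212. Tumor 4 had no read, so leaving it out widens the difference by construction. With any other single library left out, Dcx missed the threshold (limma adjusted p = 0.0797 to 0.123). Its paralog Dclk1, a doublecortin-like kinase, ranged from 310 to 356 in the oviducts and was at 2151, 823, 1098 and 217 in the tumors, again with tumor 4 the lowest, and also missed the threshold (1.28 ± 0.49, adjusted p = 0.0733).

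Tubb3 (ENSMUSG00000062380, chromosome 8, 123411424 to 123422015, plus strand) had 15.6, 11.2, 2.99, 6.29 and 3.35 normalized counts in oviducts 1 to 5 and 56.3, 68.1, 24.8 and 76.8 in tumors 1 to 4. The lowest tumor, tumor 3, was above the highest oviduct. Tumor 4, which had no read of Dcx, Elavl4 or Gap43, had the highest level of Tubb3. The means were 7.90 ± 5.44 (SD, n = 5) and 56.5 ± 22.8 (SD, n = 4), and the log2 change was 1.63 ± 0.31 (adjusted p = 0.00275). The call held without each library in turn, with adjusted p from 0.000752 to 0.00972. It also held under limma-voom (0.00382).

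Map2 (ENSMUSG00000015222, chromosome 1, 66175273 to 66442583, plus strand), the dendritic microtubule-associated protein, was the 1 gene of the 8 that fell. The oviducts held 86.0, 72.6, 62.7, 74.7 and 123 normalized counts and the tumors 78.7, 29.5, 11.3 and 11.6. Tumor 1 lay inside the range of the oviducts and tumors 2 to 4 below it. The means were 83.7 ± 23.3 (SD, n = 5) and 32.8 ± 31.8 (SD, n = 4), and the tumor mean was 17.5 without tumor 1. The log2 change was -1.19 ± 0.38 (adjusted p = 0.0349). Leaving out any 1 of the 5 oviducts ended the call (adjusted p = 0.053 to 0.0796), as did the analyses without tumor 2 (0.0602), tumor 3 (0.0755) or tumor 4 (0.0708) and after quantile normalization (-0.89, adjusted p = 0.0867). It held without tumor 1 (0.00296) and under limma-voom (0.0334). Map2 shares 124 exon bases with the antisense gene Gm10558, and the strandedness of the counting is not given, so reads there cannot be assigned to a strand.

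Smooth muscle markers moved in a similar way to Map2 across the tumors. The summed level of 7 of them (Myh11, Acta2, Cnn1, Tagln, Des, Actg2 and Smtn) was 33035 to 74386 in the oviducts and 70630, 22681, 3513 and 12660 in tumors 1 to 4. Of the 7, 2 were called lower, Myh11 and Cnn1, against 12.1% of all genes. The likeness did not extend to the oviducts: the sum was highest in oviduct 4, where Map2 was at 74.7. It was 36440 in oviduct 5, where Map2 was highest at 123. None of the 7 was at 0. The part of smooth muscle in the Map2 result was not tested. Prph, the peripherin of peripheral nerve axons, was likewise near the oviduct level in tumor 1 only, with 97.1, 12.5, 0 and 2.10 in tumors 1 to 4 against 52.7 to 128 in the oviducts.

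Stmn2 (ENSMUSG00000027500, chromosome 3, 8509360 to 8561606, plus strand), a stathmin that binds tubulin and is known from growing axons, was expressed in all 9 libraries. The oviducts held 73.7, 59.1, 39.8, 46.4 and 14.5 normalized counts and the tumors 235, 13.6, 21.4 and 139. Tumors 1 and 4 were above every oviduct, tumor 3 was within their range and tumor 2 was just under the lowest. The log2 change of 0.44 ± 0.62 was not significant (adjusted p = 0.628), and it was -0.09 without tumor 1, whose removal took the tumor mean from 102 to 57.9 normalized counts. Stmn1, the broadly expressed stathmin of dividing cells and young neurons, rose in contrast in all 4 tumors, from 188 ± 105 to 852 ± 157 (2.17 ± 0.30, adjusted p = 0.000364).

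Nefl (ENSMUSG00000022055, chromosome 14, 68083863 to 68089095, plus strand), the light neurofilament chain, was barely detected. It had 2 reads among the oviducts, both in oviduct 4, and 7 and 5 reads in tumors 2 and 4, with 0 in tumors 1 and 3. The ratio of tumor to oviduct was 8.65 with a 95% counting interval of 1.93 to 79.6, which covers counting error only, and the log2 change was 0.44 ± 0.29 (adjusted p = 0.281). Nefl and Nefm share 1108 exon bases on opposite strands. The strandedness of the counting is not given, so it is not known how reads there were counted or whether they were left out. Other neurofilament genes were also low: Nefh had reads in all 5 oviducts, with 1.12 to 8.24 normalized counts in the oviducts and 0 to 5.68 in the tumors, and Ina, internexin, 0 to 2.23 and 0 to 6.31.

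Gap43 (ENSMUSG00000047261, chromosome 16, 42248442 to 42340651, minus strand), a membrane protein of growth cones, had 0, 0, 1, 1 and 2 reads in oviducts 1 to 5 and 61, 37, 12 and 0 reads in tumors 1 to 4. In normalized counts the tumors were at 59.2, 42.0, 13.5 and 0, with a mean of 28.7 ± 26.9 (SD, n = 4) that was 18.5 without tumor 1. As with Dcx, tumors 1 to 3 were above every oviduct and tumor 4 had no read. The log2 change was 1.44 ± 0.51 (adjusted p = 0.0531), which missed the threshold, and it was 2.02 (adjusted p = 0.00111) without tumor 4. Leaving out tumor 4, which had no read, widens the difference by construction. With any other single library left out, Gap43 missed the threshold (limma adjusted p = 0.0714 to 0.135).

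**Figure D2:**
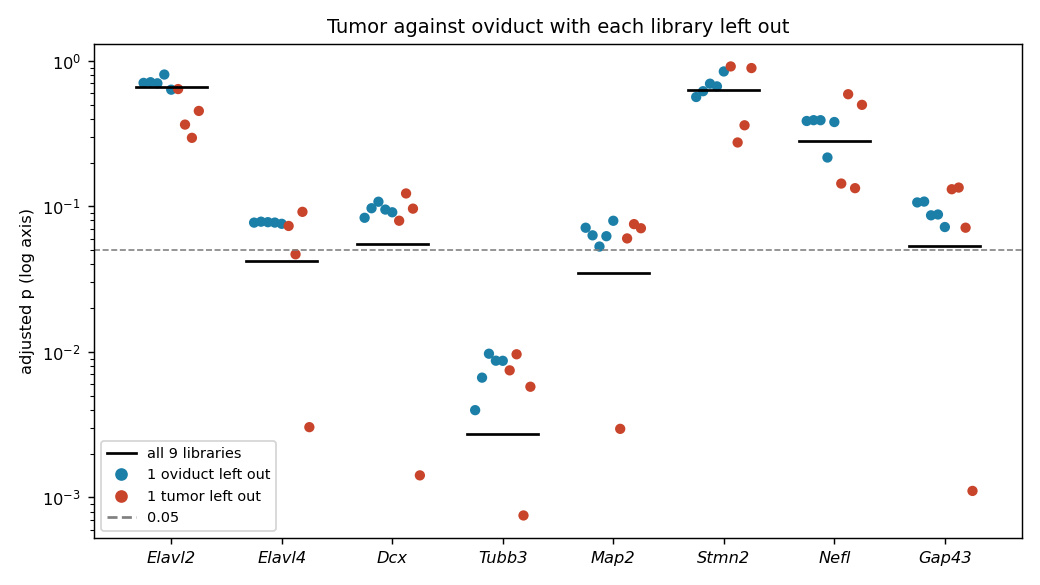
Adjusted p (log axis) of each gene for tumor against oviduct with all 9 libraries (black line) and with 1 oviduct (blue points) or 1 tumor (red points) left out; the dashed line is 0.05. All points of Tubb3 lie between 0.000752 and 0.00972, while those of Elavl4 and Map2 lie on both sides of the line.

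Against each oviduct genotype alone, in a model in which the 3 groups share 1 spread, Tubb3 was the 1 gene of the 8 called in either comparison. All of these comparisons use the same 4 tumors. The change was 1.49 ± 0.36 against Dicer1+/D1693N oviducts (adjusted p = 0.0159), where 16.6% of all genes were called and 5.17% called higher, and 1.83 ± 0.40 against Dicer1+/+ oviducts (adjusted p = 0.0150), where 13.8% were called and 4.07% called higher. The Dicer1+/D1693N call was lost without oviduct 2 (adjusted p = 0.0519) or oviduct 3 (0.0813), and the Dicer1+/+ call without oviduct 4 (0.0796) or oviduct 5 (0.132). Elavl4 changed by 1.98 in both and missed the threshold (adjusted p = 0.103 and 0.169). Map2 changed by -1.06 and -1.38 (0.117 and 0.0954), Dcx by 2.97 and 2.89 (0.121 and 0.204), and Gap43 by 1.59 and 1.22 (0.0871 and 0.263). Without tumor 4, Dcx (0.00657 and 0.0148), Elavl4 (0.0123 and 0.024) and Gap43 (0.00302 and 0.0152) passed in both. Without tumor 1, Map2 did (0.0139 and 0.0127). Tumor 4 had no read of Dcx, Elavl4 or Gap43, and tumor 1 had the highest Map2 level of the tumors. Leaving out the tumor nearest the oviducts widens the difference by construction.

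**Figure D3:**
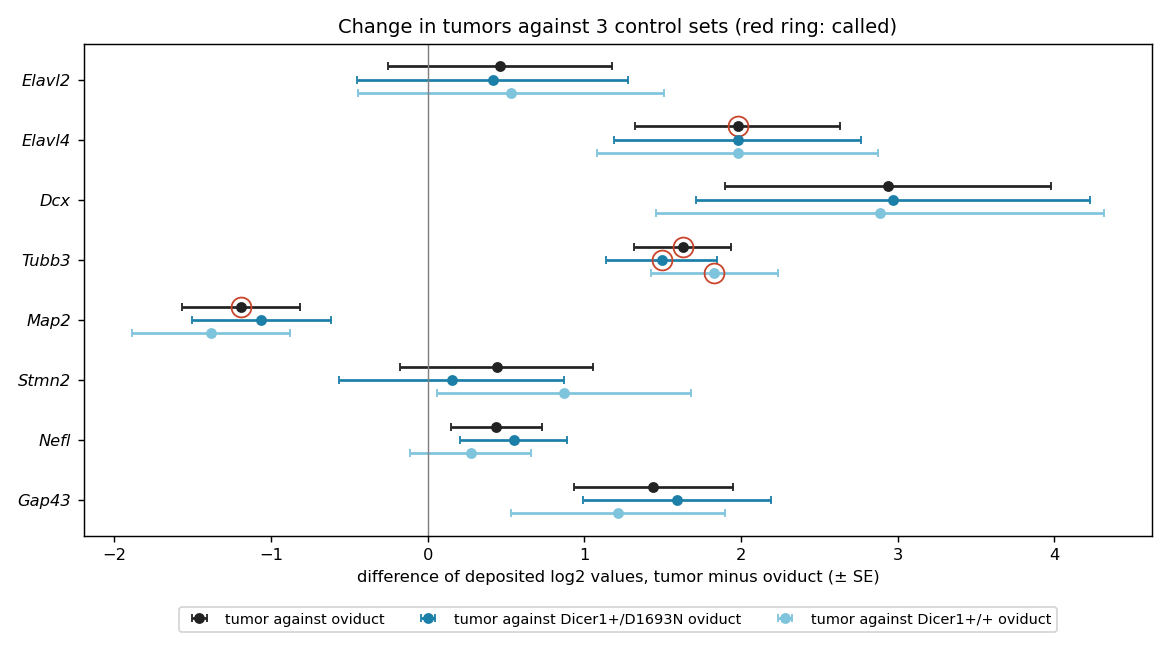
Log2 change in tumors (point) with its standard error (bar) for each gene against all 5 oviducts, the 3 Dicer1+/D1693N oviducts and the 2 Dicer1+/+ oviducts; red rings mark called changes. Tubb3 is ringed in all 3 comparisons, Elavl4 and Map2 only against all oviducts.

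Between the oviduct genotypes, limma called 0 of the 8 genes, and 0 of them had an unadjusted p under 0.05, against 2.75% of all genes. Limma-voom also called 0. Of all genes, 0.0206% were called (4 of 19435). The changes, Dicer1+/D1693N minus Dicer1+/+, ranged from -0.37 ± 0.72 for Gap43 to 0.72 ± 0.86 for Stmn2, and each of the 8 was smaller than its own standard error. Tubb3 was at 9.95 ± 6.42 (SD, n = 3) in Dicer1+/D1693N and 4.82 ± 2.08 (SD, n = 2) in Dicer1+/+ oviducts, and Map2 at 73.8 ± 11.7 and 98.7 ± 34.0. With 2 Dicer1+/+ libraries, these data cannot show that the genotypes are alike.

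Levels of different genes were compared per kilobase of annotated exon. In the oviducts the order of mean levels was Stmn2 (8.34 ± 3.96 normalized counts per kilobase, SD, n = 5), Map2 (5.09 ± 1.42), Tubb3 (4.23 ± 2.91), Elavl2 (0.69 ± 0.44), Gap43 (0.53 ± 0.60), Dcx (0.17 ± 0.16), Nefl (0.093 ± 0.21) and Elavl4 at 0. Stmn2, Map2 and Tubb3 each differed from the next in this order by less than their larger SD, as did Elavl2, Gap43, Dcx and Nefl, and the step from Tubb3 to Elavl2 was wider than the SD of either. In the tumors the order became Tubb3 (30.2 ± 12.2, SD, n = 4), Dcx (27.5 ± 42.6), Gap43 (18.8 ± 17.6), Stmn2 (18.2 ± 18.8), Elavl4 (9.95 ± 13.6), Elavl2 (5.42 ± 10.2), Map2 (1.99 ± 1.93) and Nefl (0.98 ± 1.17). No 2 neighbours in the tumor order differed by more than their larger SD, and the order changed with single libraries. Without tumor 3, Dcx was at 6.45 per kilobase, below Tubb3, Stmn2, Gap43 and Elavl4, and Elavl2 at 0.31 was the lowest of the 8. Without tumor 1, Dcx (35.1) was above Tubb3 (30.3), Stmn2 was at 10.3, and Elavl4 (3.42) was below Elavl2 (6.95).

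**Figure D4:**
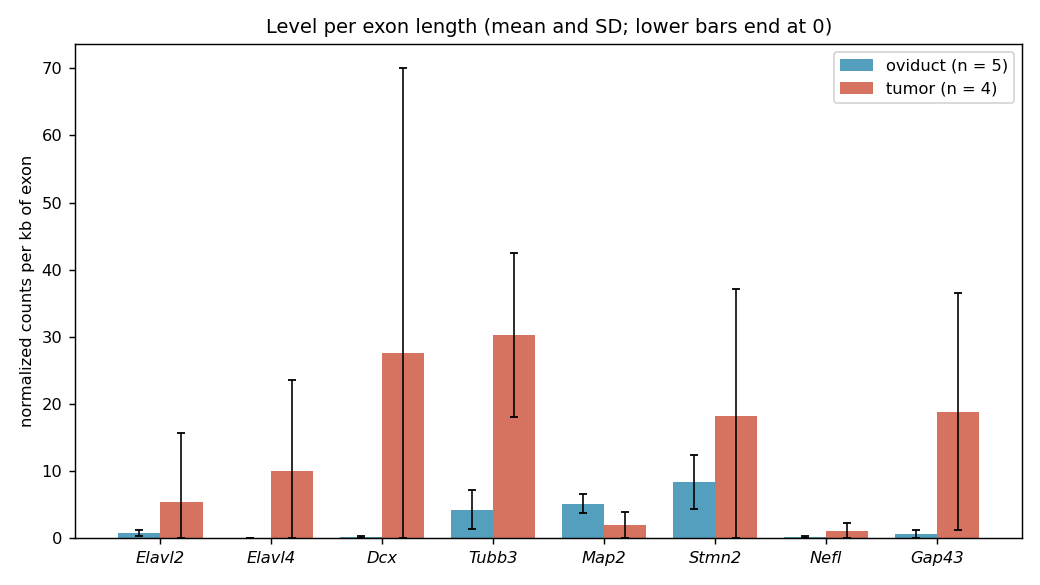
Mean level per kilobase of exon of the 8 genes in oviducts (n = 5) and tumors (n = 4), with the SD over libraries as error bars whose lower ends stop at 0. The oviduct bars of Stmn2, Map2 and Tubb3 (8.34, 5.09 and 4.23) stand above the other genes, and in the tumors Tubb3 (30.2) has the highest mean and Dcx (27.5) the widest error bar.

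The gene lists that follow were not tested as lists, and their counts stand beside the share of all genes called, 6.53% higher and 12.1% lower. Of the other genes of the neuronal cytoskeleton and axon, all 28 listed were measured, of which 3 were called higher and 5 lower, counts near those shares, with a median log2 change of 0.35. The genes that rose were Stmn1, Tubb2b (1.65 ± 0.20, adjusted p = 0.000144), a beta-tubulin of the developing nervous system, and Tubb4a (1.49 ± 0.43, adjusted p = 0.0233), another beta-tubulin of neural tissue. Tubb2b was at 111 to 197 normalized counts in the oviducts and 371 to 556 in the tumors, without overlap. Among those that fell were Cntn2, an axonal adhesion molecule (-2.73 ± 0.46), Prph (-1.80 ± 0.60), and the microtubule-associated proteins Map1b (-1.73 ± 0.31) and Map1a (-1.39 ± 0.25). Map1b fell from 3339 ± 190 to 1111 ± 627 normalized counts and, like Map2, had its highest tumor level in tumor 1.

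Of the other neuronal RNA-binding genes, 15 of 16 were measured, 0 were called higher and 3 lower, against 6.53% and 12.1% of all genes, with a median of -0.30. Those that fell were Khdrbs3, a STAR family splicing regulator (780 ± 105 to 209 ± 100), Msi2, a Musashi RNA-binding protein (3386 ± 601 to 1203 ± 501), and Srrm4, a regulator of neuronal microexons (53.4 ± 17.5 to 10.9 ± 2.90). Rbfox3, whose product is the NeuN antigen of mature neurons, had 1.57 to 14.5 normalized counts in the oviducts and 0 to 7.77 in the tumors. Rbfox3 was not called (-0.29 ± 0.31, adjusted p = 0.510). The list also counts the broadly expressed Elavl1, so it is not confined to genes of neurons.

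Of 30 listed neurogenic transcription factors, 16 were measured, 4 were called higher and 0 lower, against 6.53% and 12.1% of all genes, with a median of 0.42. Sox11, a SoxC factor of immature neurons and other embryonic tissues, rose from 3.73 ± 3.68 to 1933 ± 1676 (5.91 ± 0.82, adjusted p = 0.000401), and its relative Sox4 rose by 1.60 ± 0.36. Isl1, a LIM homeodomain factor of motor and sensory neurons (3.77 ± 1.10), and Gata3 (1.82 ± 0.38), a factor of sympathetic neurons and other lineages, were the others. Sox11, Isl1 and Gata3 were, among the tumors, all lowest in tumor 4, the tumor without Dcx, Elavl4 or Gap43 reads: Isl1 was at 607, 235, 2070 and 2.10 in tumors 1 to 4, and Sox11 at 3004, 945, 3666 and 116. Sox4 did not share this order, with 2994, 2551, 4345 and 4110. Rest, counted in this list although its product represses neuronal genes, was at 622 ± 51.9 in oviducts and 936 ± 310 in tumors (0.52 ± 0.20, adjusted p = 0.0734).

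Of 37 listed genes of synapses and neuroendocrine cells, 30 were measured, 1 was called higher and 4 lower, counts near the 6.53% and 12.1% of all genes, with a median of -0.51. Ddc, aromatic amino acid decarboxylase, rose (1.27 ± 0.29), and Syn2 (-2.15 ± 0.65), Pclo (-1.99 ± 0.33) and Cplx2 (-1.87 ± 0.36), which act at presynaptic terminals, and the tachykinin precursor Tac1 (-1.41 ± 0.33) fell. Among Schwann and glial genes, 15 of 17 were measured, 0 were called higher and 3 lower, against 6.53% and 12.1% of all genes, with a median of -0.24. Among those that fell was S100b, a calcium-binding protein of glia and other cells (-4.68 ± 0.41). The summed level of the 15 was 3091 to 3608 in the oviducts and 2390 to 3372 in the tumors. A few genes of high level made up most of each sum, so it does not show how the other genes of the list changed. Changes in the list ran in both directions, up to 0.86 ± 0.39 for Egr2, which was not called (adjusted p = 0.120). Sox10, the defining factor of Schwann cells, was at 3.35, 3.74, 5.97, 0.786 and 0 in the oviducts, near the limit of 3 reads, and at 0 in all 4 tumors, and was not called (adjusted p = 0.0641). The part of glial cells in the results was not tested.

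**Figure D5:**
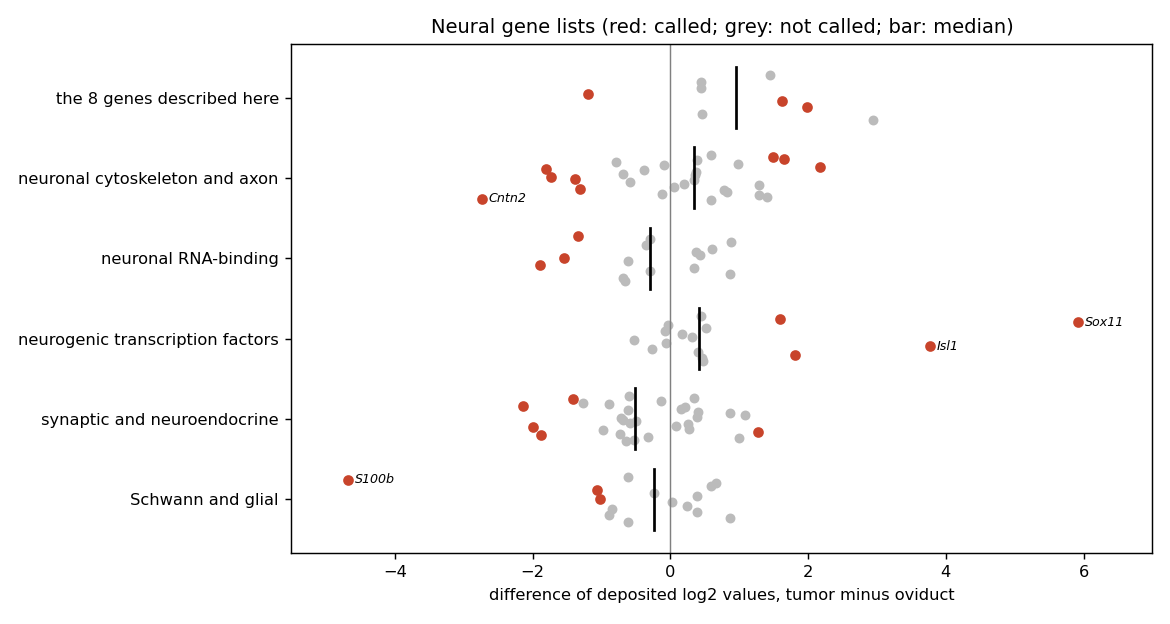
Log2 change, tumor minus oviduct, of every measured gene of 5 neural lists and of the 8 genes, 1 point a gene, with called genes in red and the median as a vertical bar. The median of the 8 genes (0.95) lies to the right of those of the lists, which run from -0.51 for synaptic and neuroendocrine genes to 0.42 for neurogenic transcription factors. Among the 8, Elavl4, Gap43 and Nefl reached the 10 reads that every gene of the table has only through the tumors, so the medians are not on like terms.

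Markers of other cells that an oviduct sample or a tumor can hold were counted in the same way. Their counts again stand beside 6.53% of all genes called higher and 12.1% lower. Of 8 measured oocyte genes, 0 were called higher and 1 lower, Dazl, and their summed level was 31.3 to 130 in the oviducts and 8.41 to 45.4 in the tumors. Of 6 measured skeletal muscle genes, 2 were called higher (Chrna1 and Myog) and 1 lower (Tnnt2). Myog was at 0 in all oviducts and Chrna1 at 0 to 1.12 normalized counts, so they could hardly come out lower. The summed level of the 6 was 220 to 345 in the oviducts and 132, 1162, 64.2 and 296 in tumors 1 to 4. All 8 proliferation genes were called higher, with sums of 347 to 636 in the oviducts and 3936 to 6786 in the tumors. The part of these cells in the results was not tested.

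For the 7 genes with at least 20 normalized counts in some library, the genes most alike in pattern were found by Pearson correlation of the deposited log2 values over the 9 libraries, among 14836 genes. The correlations describe 9 libraries that all genes share, and Nefl was too low to enter. Dcx was most like Mex3b (r = 0.990), Dach2 (0.988) and Cadps (0.987). Mex3b was at 160 to 215 normalized counts in the oviducts and 367, 434, 1103 and 151 in the tumors. Cadps, which primes dense-core vesicles for release, had 1.12 to 3.14 normalized counts in the oviducts and 35.9, 77.2, 573 and 0 in the tumors, the same order of tumors as Dcx. Elavl4 was most like Dkk1 (0.994), Col2a1 (0.989) and Ddx39b (0.985). Dkk1, a secreted WNT antagonist, was like Elavl4 at 0 in all oviducts and was at 261, 5.68, 104 and 0 in the tumors, and Col2a1, a collagen of cartilage, was at 867, 17.03, 127 and 3.15. Gap43 was most like Igfbp2 (0.979), Ifrd1 (0.969) and Gria2 (0.968). Igfbp2 was at 258 to 418 in the oviducts and 2688, 1907, 916 and 264 in the tumors. Gria2, an AMPA receptor subunit, had 5.97 to 11.2 in the oviducts and 892, 333, 90.1 and 8.41 in the tumors.

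The likenesses of the remaining genes were found in the same way. Tubb3 was most like 8030451A03Rik (0.972), Pla2g7 (0.968) and Ly6c1 (0.967). Pla2g7, a secreted phospholipase, was at 86.0 to 181 in the oviducts and 1093, 1159, 373 and 1448 in the tumors, with tumor 3 the lowest tumor as for Tubb3. Map2 was most like Hcn4 (0.975), Dgkh (0.971) and Prr7 (0.969). Hcn4, a pacemaker channel, was at 53.9 to 97.1 in the oviducts and 67.0, 22.7, 0 and 2.10 in the tumors. Elavl2 was most like Setdb1 (0.989), Arl4a (0.979) and Ddx51 (0.979), and Stmn2 like Diap2 (0.952), Mtss1 (0.946) and Porcn (0.943). Setdb1, a histone methyltransferase, had its maximum of 956 in tumor 3, where Elavl2 also peaked, against 548 to 679 in the other libraries.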

How the data were processed

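Poly-A RNA-seq libraries of 5 mouse oviducts and 4 tumors were analysed from 1 table of 19435 genes. The deposited values are log2 values, and their transformation is not given in the sources used here. The submitters' processing notes name FastQC 0.11.5, STAR 2.5.3a, HTSeq (no version) and GRCm38 (mm10). How counting treated strand, and which annotation it used, are not given in the sources used here. All columns share a lowest value of 3.427, held by genes without a read. Undoing a variance-stabilizing transformation returned whole reads per size factor in 100% of cases (tolerance 0.05 reads). Every gene had at least 10 reads in total. Libraries held 8504993 to 12526078 reads. Intervals (95%, exact) and limits from 3 reads describe counting error alone, because PCR copies cannot be recognised here without molecular identifiers.

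Groups came from the labels, which give no batch. Tumors were compared with all oviducts in a 2-group model, and the other comparisons used a 3-group model with 1 shared spread. The test was the moderated test of limma 3.58.1 (R 4.3.3; trend in the prior variance; two-sided) on the deposited log2 values, with Benjamini-Hochberg adjustment over 19435 genes. The alternatives were quantile normalization, limma-voom on the recovered reads, a filter on low values, no trend, no minimum change, a replicate block and leaving out each library. The scripts were tested on simulated data. Annotation and exon lengths came from GENCODE M21, which 18576 symbols matched. Promoter windows and miRNAs came from RefSeq tables. The 10 genes and the 11 lists were chosen with earlier results of these data known. The genes named were the 10 genes, up to 4 called genes per list and direction, and the 3 genes most correlated with each gene. Some genes of the Schwann and glial list are not reported here by name. Genes outside this rule that are named (among them Elavl1, Dclk1, Rbfox3, Rest, Nefh, Ina, Sox10, Egr2 and Dicer1), the 3 miRNAs and the motifs were chosen after values were seen.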

Additional observations from a re-analysis of the deposited data

Results flagged for a closer look

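Within each group of 4 or 5 libraries, the highest and the lowest library of each of the 8 genes were compared with the rest, by the gap to the nearest library divided by the whole range. Of 15 such groups tested, 1 had a library beyond the 95% limit, where chance gives about 1 in 20. It was Nefl in oviduct 4, with a gap over range of 1.0, because its 2 reads were the only Nefl reads among the 5 oviducts.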

How the results depend on the processing

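Between tumors and oviducts, 3 of the 8 genes were called. The number was 1 with the filter on low values, which left Map2 and Stmn2 among the 14508 genes tested, 1 with the replicate block, and 1 to 4 when a library was left out. Genes called among all went from 3625 to 6051 with no minimum change. Leaving out libraries gave -0.45 to 0.94 for Elavl2 and -0.092 to 0.92 for Stmn2, so their directions depend on tumor 3 and tumor 1. With quantile normalization the median over all genes tested went from -0.05 to 0.08 and the genes called to 1696 higher and 1943 lower (46.6% higher), against 1269 and 2356 (35.0%). On that scale 4 of the 8 genes were called, all higher: Map2 was lost, and Dcx and Gap43 (adjusted p = 0.0162) passed. The Tubb3 call held under all alternatives run for tumor against oviduct except the filter on low values, which did not keep it.

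Against Dicer1+/D1693N oviducts, 1 gene was called, and the number was 2 after quantile normalization (43.3% of all calls higher, against 31.2%), 0 with the filter, 4 with the replicate block and 0 to 4 without a library. Elavl2 was at -0.066 with limma-voom and -0.50 to 0.89 without a library, and Stmn2 at -0.15 with the block and -0.38 to 0.63 without a library. Against Dicer1+/+ oviducts, 1 gene was called, 0 with the filter and 0 to 4 without a library, and 2683 genes among all became 1123 to 3570 without a library (1402 without oviduct 4, 1123 without oviduct 5). Elavl2 was at -0.38 to 1.04 without a library. Between oviduct genotypes, 4 genes among all became 2 with limma-voom and 0 to 4 without a library, with Dcx at -0.33 to 0.18 and Elavl2 at -0.39 to 0.63.

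The number in the labels was used as a replicate block for tumor against oviduct and tumor against Dicer1+/D1693N oviduct. Deviations of same-numbered libraries correlated at 0.107, 0.039, -0.126 and -0.076, so the numbers were not taken to pair them. In the block fit Elavl4 (adjusted p = 0.0696) and Map2 (0.0823) were not called and Tubb3 was (0.0155). Against Dicer1+/D1693N oviducts, tumor 4 has no partner, and the block fit leaves it without weight. No paired analysis was possible for the other comparisons because their groups share fewer than 2 numbers. Depth limits Nefl most, with at most 7 reads in a library.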

Other observations

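Some genes of synaptic vesicles and transmitters were picked with their values in view, because the tumors differed widely in them. They do not stand for their list, in which 1 of 30 measured genes was called higher and 4 lower. Across all genes 6.53% were called higher and 12.1% lower, and the median log2 change of the list was -0.51. Snap25, a SNARE protein of neurotransmitter release, was at 103 normalized counts in tumor 3, against 0 to 6.70 in the oviducts and 0 to 3.41 in the other tumors. Syt1, a calcium sensor of synaptic vesicles, was at 397 in tumor 3, where Dcx and Elavl2 also peaked, against 80.2 to 153 in the oviducts and 0 to 46.6 in the other tumors. Syt4 was at 2.99 to 15.6 in the oviducts, at 157 in tumor 1, where Elavl4, Stmn2 and Gap43 peaked, and at 0 in the other tumors, below every oviduct (log2 change -0.13). Slc18a3, the vesicular acetylcholine transporter, was at 0 in all oviducts and at 6.80, 38.6, 3.38 and 0 in the tumors. With no oviduct read, Slc18a3 is in the data only through the tumors and could hardly come out lower. None of these passed the threshold between tumors and oviducts by limma's test (adjusted p = 0.317, 0.270, 0.917 and 0.0597).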
